A study of Bos indicus with 5 samples.

Results

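Transcripts of 10 genes of antigen presentation by major histocompatibility complex (MHC) molecules were followed in the oviduct ampulla of Nelore cows. The genes were B2M, TAP1, TAPBP, PSMB8, PSMB9, NLRC5, CD74, CIITA, CTSS and BOLA-DRA. They were chosen by symbol, without regard to case, and each symbol matched 1 row, so that 10 of the 24616 genes in the deposited table were members. Of these 10 genes, 10 had a mean normalized read count over 5 and entered the test, out of 15815 genes tested in all. Ampulla RNA was sequenced from 2 cows that ovulated a large follicle and formed a large corpus luteum (LF/LCL) and 3 cows in which both were small (SF/SCL), 1 library per cow. All were multiparous, non-lactating cows that had been pre-synchronized with a GnRH agonist and prostaglandin. Each cow received a 1 g intravaginal progesterone device and 2 mg of estradiol benzoate 10 days before the GnRH agonist that induced ovulation, and prostaglandin F2α at device removal and again after it. In LF/LCL cows the device was removed 42 h before GnRH, and a further prostaglandin injection was given on the day of insertion. In SF/SCL cows the device was removed 30 h before GnRH and that further injection was not given. Tissue was collected on day 4 after GnRH from the oviduct on the side of the corpus luteum, over its full thickness. The sequenced cows were the extremes of each group, ranked by follicle, corpus luteum and steroid measurements, and 1 LF/LCL library had been discarded by the study for poor quality.

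Cells show fragments of their proteins to T lymphocytes on MHC molecules. Class I molecules, a heavy chain bound to beta-2 microglobulin (B2M), carry peptides cut by the proteasome in nearly every nucleated cell. Class II molecules, made of alpha and beta chains such as BOLA-DRA and its partner, carry peptides from the endosome and are mostly found on macrophages, dendritic cells and B cells, and on some epithelia under interferon gamma. The mucosa of the oviduct receives sperm and embryos that are foreign to the cow, and it also guards against microbes, so that both arms of presentation matter there.

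The libraries held from 13418278 to 19592174 reads assigned to genes. OVGP1, the oviduct glycoprotein of secretory cells, had from 117179 to 147247 normalized reads, and FOXJ1, the master regulator of motile cilia, from 8481 to 12698, so that both epithelial cell types of the ampulla were represented in every library. The mix of tissue transcripts differed between the groups. The summed level of the 9 smooth muscle markers found was 120884 and 62500.1 in LF/LCL and ran from 15365 to 41602 in SF/SCL, while that of the 12 ciliated cell markers was 49109 and 65654 against 76151 to 76877. These sums do not overlap between the groups, and their part in the values that follow was not tested. In whole tissue, fewer cells of a type and less RNA per cell cannot be told apart.

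Among the 10 genes, CTSS was the one whose groups did not overlap, with 1.62 times as much transcript in LF/LCL as in SF/SCL on average. The class II genes CD74, BOLA-DRA and CIITA varied about 1.7-fold to 2.1-fold between cows of the same group and showed no group difference beyond that spread. The class I genes B2M, TAP1, PSMB8, PSMB9 and NLRC5 had their highest value in LF/LCL replicate 2, and TAPBP varied 2.25-fold between the SF/SCL cows. With limma on log2(value + 1), 0 of the 10 genes had a Benjamini-Hochberg adjusted p under 0.05, as did 0% of the 15815 genes tested, where the smallest adjusted p was 0.178. The quasi-likelihood test of edgeR, run on recovered reads, also called 0%. An unadjusted p under 0.05 was found for 1 of the 10 genes (CTSS), a share of 10% beside 11.5% of all genes tested, of which 5.64% were higher and 5.86% lower in LF/LCL. The groups were apart, without overlap, in 1 of the 10 genes beside 30.1% of all genes tested, 15.0% with the higher values in LF/LCL. The shares of these genes were thus not above those of the whole table. The median log2 fold change, LF/LCL minus SF/SCL, was 0.25 for the 10 genes and 0.01 for all genes tested, and 9 of the 10 values were above 0.

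**Figure D1:**
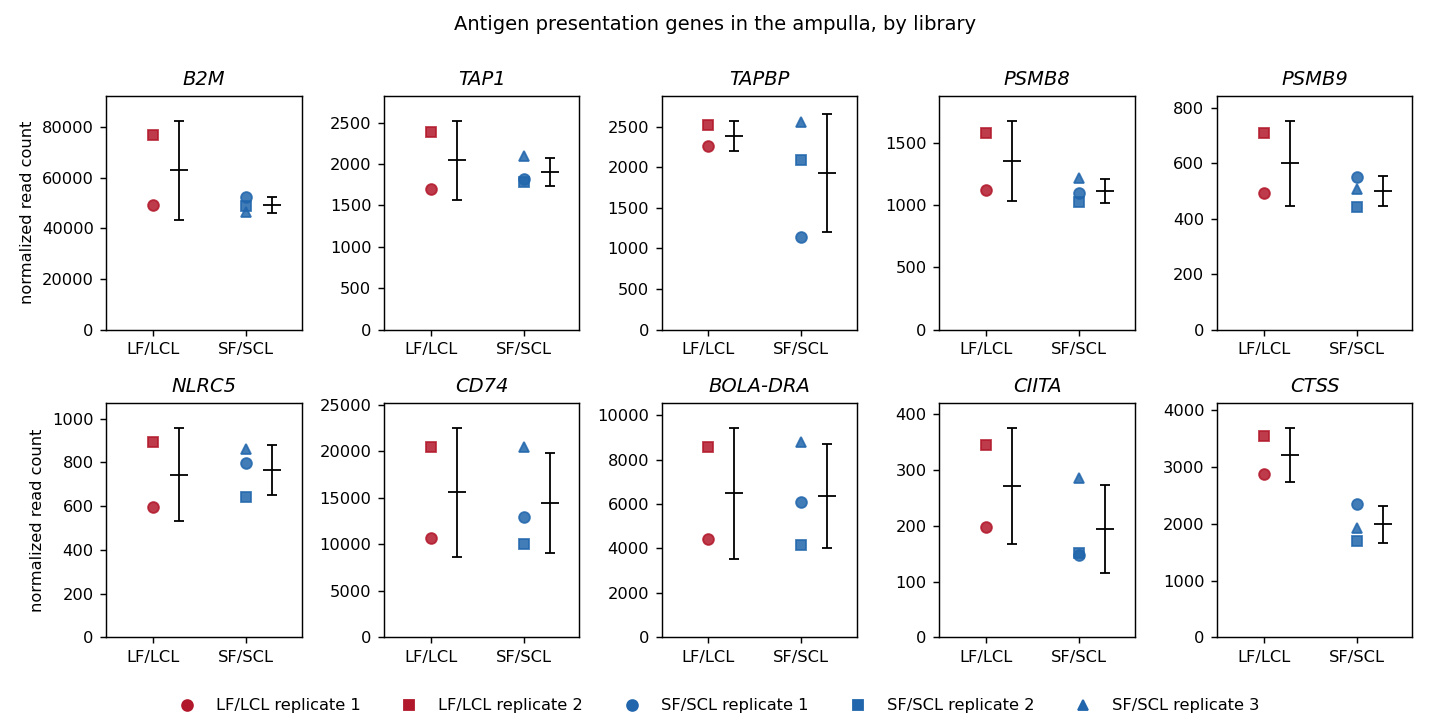
Normalized read count (vertical axis, linear from 0) of each of the 10 genes in the 2 LF/LCL and 3 SF/SCL libraries, with group mean and SD beside the points. CTSS is the panel in which both LF/LCL points, 2882 and 3547, lie above all SF/SCL points, of which the highest is 2345.

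The counts depended on single libraries. Without LF/LCL replicate 1, B2M, PSMB8 and PSMB9 joined CTSS at an unadjusted p under 0.05, so that 4 genes passed beside 7.84% of all genes, and 7 were without overlap beside 56.9% of all genes. Without LF/LCL replicate 2, 3 genes were without overlap (CTSS, and TAP1 and NLRC5 with the lower values in LF/LCL) beside 57.1%, and CTSS alone had an unadjusted p under 0.05 (9.89% of all genes). Leaving out SF/SCL replicate 1, 2 or 3 gave 2, 1 and 4 genes without overlap, beside 42.0%, 43.0% and 41.1% of all genes. In each of these 3 fits CTSS alone had an unadjusted p under 0.05, beside 10.1%, 10.5% and 9.45% of all genes. In these fits the lone LF/LCL library, where only 1 was left, was assumed to vary like the other group.

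CTSS encodes cathepsin S, the endosomal cysteine protease that trims the invariant chain so that class II molecules can bind peptide. It had 2882 and 3547 normalized reads in LF/LCL replicates 1 and 2, against 2345, 1699.7 and 1919.9 in SF/SCL replicates 1, 2 and 3. Both LF/LCL libraries were above all SF/SCL libraries. The means were 3214 ± 470.9 (SD, n = 2) and 1988 ± 327.8 (SD, n = 3). Its log2 fold change was 0.70 ± 0.17 (SE, 95% interval from 0.28 to 1.11), with a limma adjusted p of 0.289 and an unadjusted p of 0.00598. An exact permutation test of this one gene over the 10 arrangements of the libraries, which doubles the one-sided p, gave p = 0.2. That is the smallest value this test allows with 2 against 3. It was fixed once the groups did not overlap, so that it adds nothing to the lack of overlap. DESeq2 on the recovered reads called CTSS (log2 fold change 0.70, adjusted p = 0.0317), where that test called 2.89% of all genes (1.38% higher in LF/LCL), and none of the other 9 genes. The edgeR exact test called none of the 10 genes, and 2.12% of all genes (1.16% higher in LF/LCL). Across the 17 alternatives the log2 fold change of CTSS ran from 0.548 to 0.848 and was never at or under 0. CTSS was among the genes that the study picked for PCR beside its own sequencing result, so that it is not an independent choice. The study's own sequencing placed CTSS among the genes higher in the LF/LCL ampulla. By PCR in a larger set of cows, its analysis of variance over group and region reported no effect of either on CTSS. The mean of CTSS by PCR was higher in LF/LCL in the ampulla and higher in SF/SCL in the isthmus. Compared within a region, that PCR gave a p under 0.05 in the isthmus and not in the ampulla, by a test that was not named. In a RefSeq gene table of another assembly (NIAB-ARS_B.indTharparkar_mat_pri_1.0), CTSS overlaps its neighbour CTSK, the gene of cathepsin K, at the ends of their spans. Reads in such an overlap cannot be given to one gene without strand. CTSK itself had 1380.4 and 837 normalized reads in LF/LCL cows and 865, 529 and 756 in SF/SCL cows, so that its groups overlapped where those of CTSS did not.

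CD74 encodes the invariant chain, which escorts new class II molecules and plugs their groove. It had 10689 and 20466 normalized reads in LF/LCL replicates 1 and 2, against 12895, 10067 and 20483 in SF/SCL replicates 1, 2 and 3. LF/LCL replicate 2 and SF/SCL replicate 3 were high and nearly equal, LF/LCL replicate 1 and SF/SCL replicate 2 were low, and the groups overlapped fully. The log2 fold change of CD74 was 0.09 ± 0.39 (SE, 95% interval from -0.87 to 1.05, limma adjusted p = 0.954).

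BOLA-DRA encodes the alpha chain of the DR class II molecule. Its values were 4403 and 8549 in LF/LCL cows and 6106, 4166 and 8805 in SF/SCL cows, in the same order of libraries as CD74. The groups overlapped, with a log2 fold change of 0.01 ± 0.40 (SE, 95% interval from -0.97 to 1.00, limma adjusted p = 0.994).

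CIITA encodes the class II transactivator, the coactivator that switches class II genes on. It had 197 and 345 normalized reads in LF/LCL cows and 148, 151 and 285 in SF/SCL cows, so that LF/LCL replicate 2 and SF/SCL replicate 3 were again the highest of their groups and the groups overlapped. Its log2 fold change was 0.49 ± 0.39 (SE, 95% interval from -0.46 to 1.44, limma adjusted p = 0.683). CIITA had the fewest reads of the 10 genes, 142 in SF/SCL replicate 1, where counting alone gives a coefficient of variation of 8.39%. The spread between cows was far wider than that, with a highest value 1.75 times the lowest in LF/LCL and 1.93 times in SF/SCL.

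For CD74, BOLA-DRA and CIITA the SD of log2(value + 1) within groups was 0.57, 0.59 and 0.55, higher than in 81.4%, 82.1% and 80.2% of all genes tested, whose median was 0.226. For CTSS it was 0.23, higher than in 50.2%. Among the 13139 genes with a mean of at least 50, the median was 0.187. There the shares were 90.4%, 90.9% and 89.5% for CD74, BOLA-DRA and CIITA, and 59.5% for CTSS. The intervals of CD74 and BOLA-DRA thus reach to about 1 on either side of 0 on the log2 scale, and that of CIITA from -0.46 to 1.44. Differences inside these intervals are compatible with the 5 libraries. The direction of CD74 and BOLA-DRA changed with the library left out, being -0.374 for CD74 and -0.464 for BOLA-DRA when LF/LCL replicate 2 was absent, and 0.563 and 0.493 when LF/LCL replicate 1 was absent. Without SF/SCL replicate 2 they were -0.136 and -0.257. For CIITA the range was from 0.088 to 0.892 in these same fits.

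**Figure D2:**
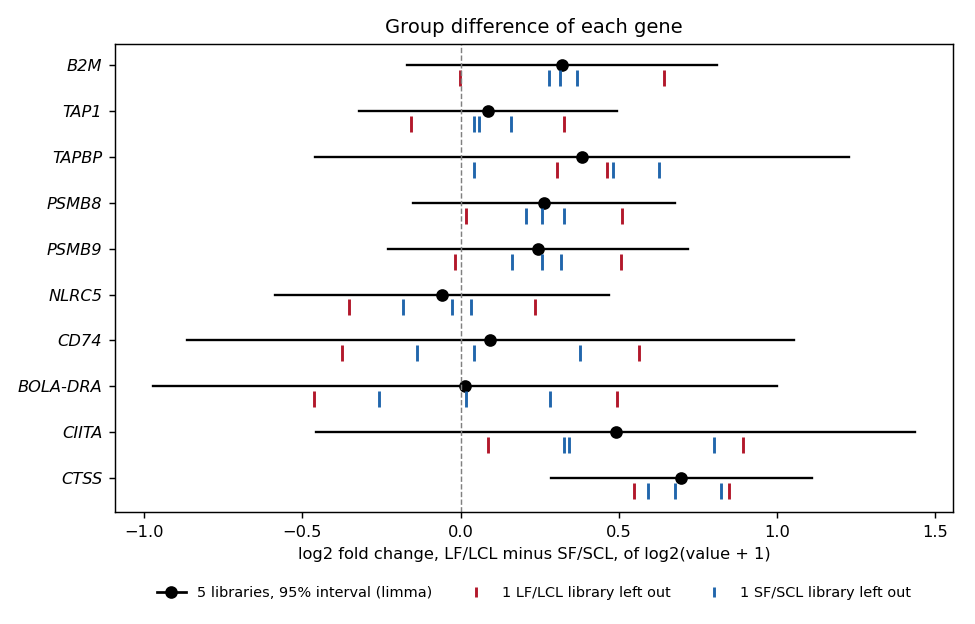
Log2 fold change (horizontal axis, LF/LCL minus SF/SCL, of log2(value + 1)) of each gene, with limma's 95% interval over 5 libraries (black) and the estimates with 1 LF/LCL (red) or 1 SF/SCL (blue) library left out. The interval of CTSS runs from 0.28 to 1.11, and the intervals of the other 9 genes include 0.

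The class II genes differed in how closely they followed CD74 from library to library, and BOLA-DRA did so most closely of those compared. The ratio of BOLA-DRA to CD74 was 0.412 and 0.418 in LF/LCL cows and 0.474, 0.414 and 0.430 in SF/SCL cows, so that its highest value was 1.15 times its lowest while CD74 itself varied 2.03-fold in SF/SCL. A ratio of this kind depends on gene length in its level, and it is read here only for its change between libraries, which scaling does not affect. The pairs of genes were chosen after their values were seen. The ratio of CIITA to CD74 was 0.0184 and 0.0168 in LF/LCL cows and 0.0114, 0.0150 and 0.0139 in SF/SCL cows, a 1.61-fold range, and that of BOLA-DRB3 to CD74 ran from 0.240 to 0.409, a 1.70-fold range. That of CTSS to CD74 ran from 0.0937 in SF/SCL replicate 3 to 0.270 in LF/LCL replicate 1, a 2.88-fold range, with 0.173 in LF/LCL replicate 2 and 0.182 and 0.169 in SF/SCL replicates 1 and 2. CTSS was low in SF/SCL replicate 3, where CD74 was at its highest.

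Resemblance of profiles was measured as the root mean square difference of centred log2(value + 1) over the 5 libraries, among the 11951 other genes with a symbol and a mean of at least 50. The gene closest to CD74 was BOLA-DRA (0.07), and BOLA-DMA (0.14) and HLA-DMB (0.15), the chains of the DM molecule that loads class II with peptide, ranked 4 and 5. CTNND2 (0.12) and LIMD2 (0.13) ranked 2 and 3. CIITA ranked 51 and CTSS ranked 5855 by closeness to CD74. These 5 libraries are few for such a ranking, which is given as a description.

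**Figure D3:**
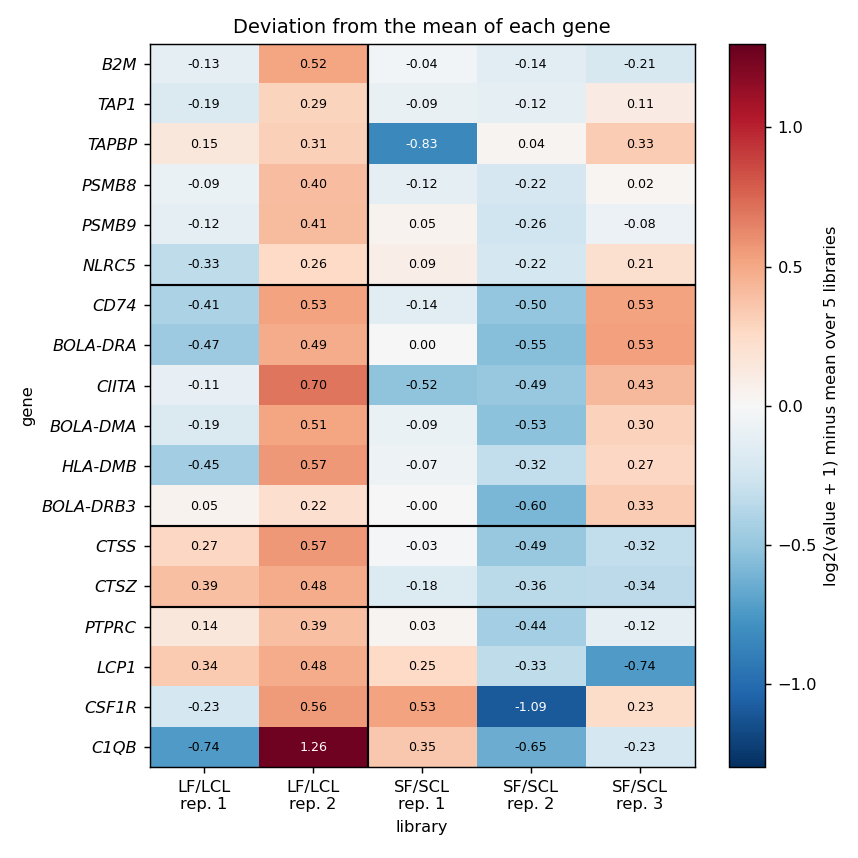
Deviation of log2(value + 1) from the mean of each gene over the 5 libraries (color, with the value printed), for class I genes, class II genes, cathepsins, and leukocyte markers. CD74 and BOLA-DRA share one pattern, high in LF/LCL replicate 2 and SF/SCL replicate 3, and CTSS and CTSZ are above their means in both LF/LCL libraries only.

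The other class II pathway genes came from a list of 34 symbols, of which 23 were found as 24 entries and 21 entries were tested. With limma 0 had an adjusted p under 0.05. An unadjusted p under 0.05 was found for 1 (4.76%), CTSZ, beside 11.5% of all genes tested. CTSZ encodes cathepsin Z, a lysosomal carboxypeptidase that the study also listed, with CTSS, among vacuole and lysosome genes. It had 1159.9 and 1239.9 normalized reads in LF/LCL cows and 785, 693 and 702 in SF/SCL cows, with no overlap. Its log2 fold change was 0.72 ± 0.11 (SE, limma adjusted p = 0.178). The groups were without overlap in 5 of the 21 entries (23.8%), 2 with the higher and 3 with the lower values in LF/LCL. The share over all genes tested was 30.1%. The median log2 fold change of the list was 0.26.

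The chains of the DM molecule were measured next, as genes chosen after their values were seen. BOLA-DMA had 260.4 and 424 normalized reads in LF/LCL cows and 279.7, 206 and 367 in SF/SCL cows. HLA-DMB had 807 and 1636 in LF/LCL cows and 1052, 886 and 1326 in SF/SCL cows. Both overlapped between the groups and were highest in LF/LCL replicate 2. BOLA-DRB3, the DR beta chain that pairs with BOLA-DRA, had 4374 and 4919 in LF/LCL cows and 4224, 2794 and 5303 in SF/SCL cows, with a log2 fold change of 0.22 ± 0.27 (SE).

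The DQ molecule is a further class II type, whose genes are very polymorphic and vary in number between cattle haplotypes. Its entries, also chosen after their values were seen, varied widely between libraries. BOLA-DQA2 had 661 and 1112 normalized reads in LF/LCL cows, and 602 and 1403 in SF/SCL replicates 2 and 3, but 4.16 in SF/SCL replicate 1. In that same library BOLA-DQA1 was at its highest, 3336, against 1358 and 2539 in LF/LCL and 1177 and 2787 in the other SF/SCL libraries. BOLA-DQA5 ran from 76.9 in SF/SCL replicate 1 to 1211 in LF/LCL replicate 2. When the 3 DQ alpha entries were added up, the 337-fold range of BOLA-DQA2 was no longer seen. The sums were 2367 and 4862 in LF/LCL cows and 3417, 2007 and 5152 in SF/SCL cows, and their ratio to CD74 ran only from 0.199 to 0.265, a 1.33-fold range. The 2 BOLA-DQB entries summed to 3317 and 4725 in LF/LCL cows and 4311, 1396 and 3392 in SF/SCL cows, and their ratio to CD74 varied 2.41-fold. Only uniquely mapped reads were kept, against one reference assembly, so that reads of similar copies may be lost or divided between them, and each single DQ, DR or class I entry is uncertain. How far this set the values was not tested.

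**Figure D4:**
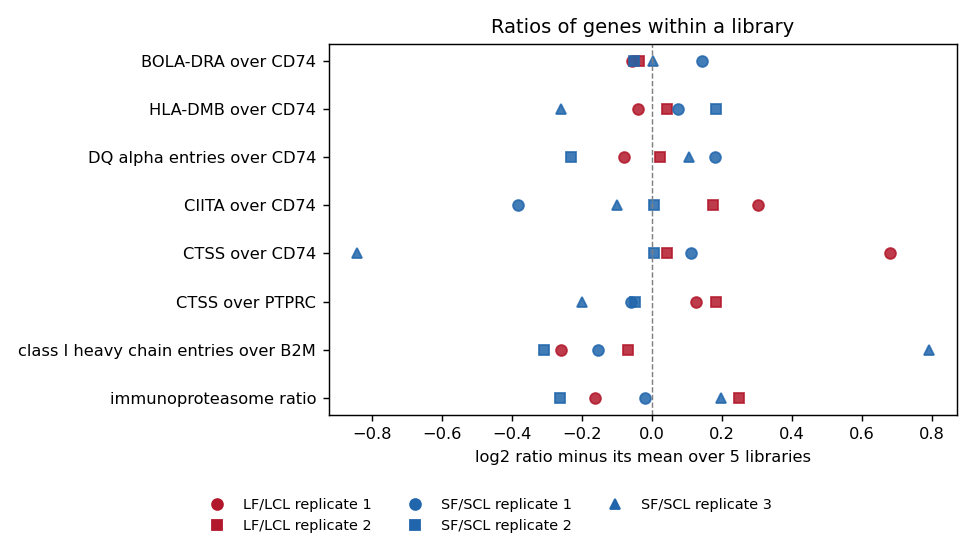
Log2 of the ratio of genes within a library, minus its mean over the 5 libraries (horizontal axis), for 8 ratios, one point per library. BOLA-DRA over CD74 lies within a 1.15-fold range, and CTSS over CD74 spreads over a 2.88-fold range.

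Turning to class I, B2M had 48990.2 and 76705 normalized reads in LF/LCL replicates 1 and 2, against 52359.9, 48702 and 46382 in SF/SCL replicates 1, 2 and 3. LF/LCL replicate 2 stood above the other 4 libraries, which were close together, and the groups overlapped. The log2 fold change was 0.32 ± 0.20 (SE, 95% interval from -0.17 to 0.81, limma adjusted p = 0.594). Without LF/LCL replicate 2 it was -0.003 and without LF/LCL replicate 1 it was 0.644.

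TAP1 encodes a subunit of the transporter that pumps peptides into the endoplasmic reticulum. It had 1704 and 2384 normalized reads in LF/LCL cows and 1823, 1787 and 2100.2 in SF/SCL cows. LF/LCL replicate 1 was the lowest and LF/LCL replicate 2 the highest of the 5 libraries, so that SF/SCL lay inside the range of LF/LCL. Its log2 fold change was 0.09 ± 0.17 (SE, 95% interval from -0.32 to 0.49, limma adjusted p = 0.892).

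PSMB8 and PSMB9 encode subunits that replace catalytic subunits of the standard proteasome to form the immunoproteasome. PSMB8 had 1126 and 1585 normalized reads in LF/LCL cows and 1102, 1028 and 1216 in SF/SCL cows, with a log2 fold change of 0.26 ± 0.17 (SE, limma adjusted p = 0.606). PSMB9 had 493 and 709 in LF/LCL cows and 551, 445 and 507 in SF/SCL cows, with a log2 fold change of 0.24 ± 0.19 (SE, limma adjusted p = 0.684). Both were highest in LF/LCL replicate 2 and overlapped between groups. In the RefSeq gene table PSMB8, TAP1 and PSMB9 are direct neighbours in this order, and 9 of the 10 genes were found in it by symbol.

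The immunoproteasome ratio, the summed value of PSMB8, PSMB9 and PSMB10 over that of their standard counterparts PSMB5, PSMB6 and PSMB7, was 0.566 and 0.753 in LF/LCL cows and 0.624, 0.528 and 0.727 in SF/SCL cows. It overlapped between groups and was highest in LF/LCL replicate 2 and SF/SCL replicate 3. PSMB10 alone had 671 and 998 normalized reads in LF/LCL cows and 915, 941 and 1066 in SF/SCL cows. Of the 14 genes of the constitutive proteasome core, 0 had an unadjusted p under 0.05 in limma, beside 11.5% of all genes tested. Their log2 fold changes lay between -0.11 and 0.42, with a median of 0.04.

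TAPBP encodes tapasin, which tethers class I molecules to the peptide transporter. Its values were 2258 and 2520.5 in LF/LCL cows and 1141, 2089.8 and 2561 in SF/SCL cows. SF/SCL replicate 1 was low and the other 4 libraries were close together. The log2 fold change of 0.38 ± 0.34 (SE, 95% interval from -0.46 to 1.23, limma adjusted p = 0.722) was 0.044 without that library. The low value was not shared by TAP1, PSMB8, PSMB9 or B2M, whose levels in SF/SCL replicate 1 lay inside the range of the other libraries.

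NLRC5 encodes the transactivator of class I genes, the counterpart of CIITA. It had 595 and 894 normalized reads in LF/LCL cows and 795, 639.6 and 862 in SF/SCL cows, and SF/SCL lay inside the range of LF/LCL. It was the only one of the 10 genes with a log2 fold change under 0, at -0.06 ± 0.22 (SE, 95% interval from -0.59 to 0.47, limma adjusted p = 0.948), and the value was 0.235 without LF/LCL replicate 1 and 0.032 without SF/SCL replicate 3. The ratio of TAP1 to NLRC5 was 2.87 and 2.67 in LF/LCL cows and 2.29, 2.79 and 2.44 in SF/SCL cows, a 1.25-fold range.

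LF/LCL replicate 2 exceeded LF/LCL replicate 1 in 10 of the 10 genes, against 49.9% of all genes tested. SF/SCL replicate 3 exceeded SF/SCL replicate 2 in 9 of the 10, B2M being the exception, against 49.0% of all genes tested. LF/LCL replicate 2 was the highest of the 5 libraries in 7 of the 10 genes, against 20.9% of all genes tested. The 10 genes share regulators and cell types, so they are not independent of each other.

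The other class I pathway genes came from a list of 24 symbols, of which 20 were found as 22 entries and 22 entries were tested. With limma 0 had an adjusted p under 0.05. An unadjusted p under 0.05 was found for 1 (4.55%), beside 11.5% of all genes tested. The groups were without overlap in 18.2% of the entries, beside 30.1% of all genes tested. Of these entries 2 had the higher and 2 the lower values in LF/LCL. The entry with an unadjusted p under 0.05 was BOLA-NC, a class I heavy chain entry. BOLA-NC had 4024 and 5133 normalized reads in LF/LCL cows and 2020.1, 2949 and 2105 in SF/SCL cows, with no overlap and a log2 fold change of 0.97 ± 0.20 (SE, limma adjusted p = 0.246). The median of the list was 0.01. TAP2, the partner of TAP1, differed by -0.05 ± 0.16 (SE) on the log2 scale, and PSME1 and PSME2, the subunits of the proteasome activator, -0.03 ± 0.18 and 0.03 ± 0.18. CALR, CANX and PDIA3, which fold the heavy chain, had values between -0.09 and -0.08. These genes and the heavy chains described next were named after their values were seen.

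The class I heavy chains appear as 5 entries, 3 of them labelled BOLA, with BOLA-NC and JSP.1. JSP.1 was the most uneven of the 5, with 5965 and 26856 normalized reads in LF/LCL cows and 8348, 15059 and 49891 in SF/SCL cows, an 8.36-fold range. BOLA (ENSBTAG00000002069) had 28495 and 40233 in LF/LCL cows and 37924, 22768 and 31249 in SF/SCL cows. BOLA (ENSBTAG00000005182) had 6659 and 7122 in LF/LCL cows and 3411, 2743 and 6232 in SF/SCL cows, without overlap, and a log2 fold change of 0.83 ± 0.34 (SE, limma adjusted p = 0.446). The 5 entries summed to 47642 and 85030 in LF/LCL cows and 54735, 45764 and 93478 in SF/SCL cows. Divided by B2M, the sum was between 0.940 and 1.11 in 4 libraries and 2.02 in SF/SCL replicate 3, the library in which JSP.1 was highest. The group means of the sum were 66336 ± 26437 (SD, n = 2) and 64659 ± 25358 (SD, n = 3).

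Of the regulators of MHC transcription, 21 of 22 symbols were found and 20 were tested. In limma 0 had an unadjusted p under 0.05, beside 11.5% of all genes tested, and the median log2 fold change was 0.02. SPI1, the myeloid and B cell factor PU.1, had 94.995 and 153 in LF/LCL cows and 75.9, 71.5 and 81.6 in SF/SCL cows, without overlap at a log2 fold change of 0.65 ± 0.30 (SE, limma adjusted p = 0.476). IRF1, which binds class I promoters, had -0.22 ± 0.16, and the interferon gamma receptor chains IFNGR1 and IFNGR2 had -0.21 ± 0.16 and -0.22 ± 0.14. EP300, a histone acetyltransferase, had 0.12 ± 0.09. IFNG itself had 2.35 normalized reads in LF/LCL replicate 1, which is 2 reads, and was listed at 0 in the other 4 libraries.

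The proteases of the endosome are held in check by cystatins and related inhibitors. Of the 7 symbols listed, 7 were found as 8 entries and 6 were tested. With limma 0 of the 6 had an unadjusted p under 0.05, beside 11.5% of all genes tested. CSTA was listed at 0 in every library and KNG1 was under the limit on mean value. CST3, the secreted cystatin C, had 3967 and 3333 normalized reads in LF/LCL cows and 3478, 3721 and 5514 in SF/SCL cows. CSTB, a cytosolic inhibitor of cathepsins, had 2775 and 2589 in LF/LCL cows and 1974, 2223 and 1081 in SF/SCL cows (ENSBTAG00000000524), without overlap at a log2 fold change of 0.67 ± 0.31 (SE, limma adjusted p = 0.48). Both were named after their values were seen.

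**Figure D5:**
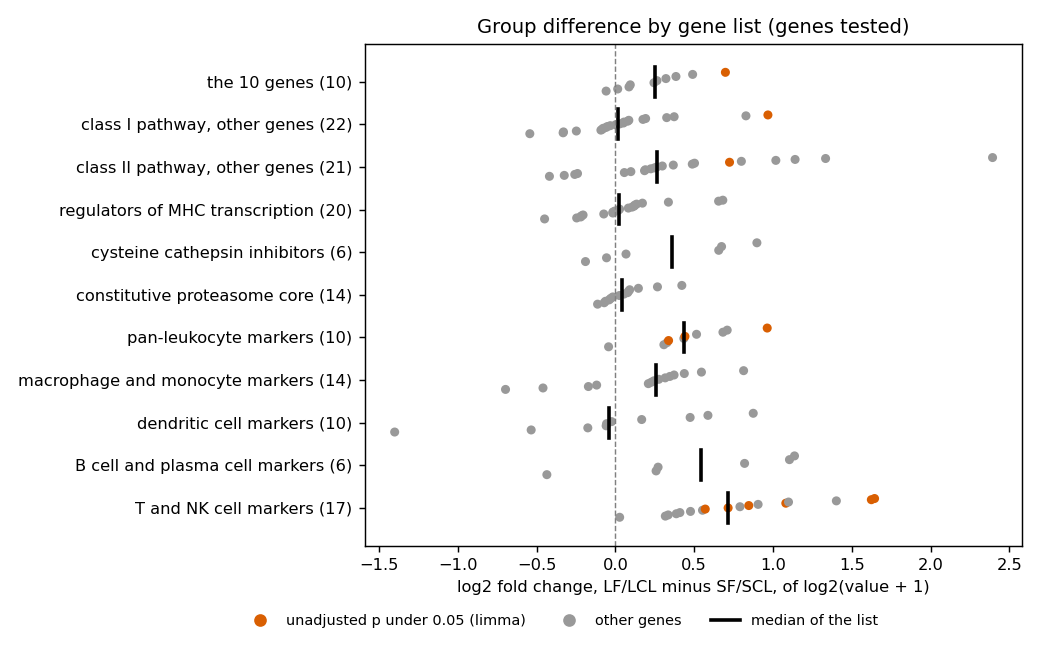
Log2 fold change (horizontal axis, LF/LCL minus SF/SCL) of every tested entry of the 10 genes and of 10 related lists, with the number tested in parentheses, the median as a bar and entries with an unadjusted p under 0.05 in orange. The orange points are CTSS, BOLA-NC, CTSZ and genes of the pan-leukocyte and T and NK cell lists.

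Leukocytes carry CTSS and class II transcripts, so their markers were read beside these genes. The 10 pan-leukocyte markers summed to 8202 and 9892 in LF/LCL cows and 7629, 5397 and 6299 in SF/SCL cows, without overlap between groups. They had a median log2 fold change of 0.44. Of the 10, 4 (40%) were without overlap, beside 30.1% of all genes tested. An unadjusted p under 0.05 in limma was found for 3 (30%), beside 11.5% of all genes tested. All of these were higher in LF/LCL. LCP1, LAPTM5 and CYBA, the most abundant, had log2 fold changes of 0.68 ± 0.28, 0.51 ± 0.32 and 0.33 ± 0.16 (SE). PTPRC, which encodes CD45 and was named after its values were seen, had 689.6 and 816 normalized reads in LF/LCL cows and 638, 459 and 575 in SF/SCL cows. The ratio of CTSS to PTPRC was 4.18 and 4.35 in LF/LCL cows and 3.67, 3.71 and 3.34 in SF/SCL cows. This ratio was without overlap too and differed by 0.26 on the log2 scale, where CTSS alone differed by 0.70. The log2 fold changes of the 10 pan-leukocyte markers ran from -0.04 to 0.96, so that the ratio depends on the marker taken. The ratio of CTSS to CSF1R, a macrophage marker, was 3.85 and 2.76 in LF/LCL cows and 1.86, 4.14 and 1.87 in SF/SCL cows. It overlapped between groups, varied 2.23-fold and differed by 0.42 on the log2 scale.

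The 14 macrophage and monocyte markers summed to 3269.7 and 7956 in LF/LCL cows and 5719, 2586 and 4785 in SF/SCL cows, with overlap. In limma 0 of these genes had an unadjusted p under 0.05, beside 11.5% of all genes tested. CSF1R had 748 and 1286 in LF/LCL cows and 1260.1, 410.3 and 1029 in SF/SCL cows, and C1QB had 501 and 2011 against 1069.8, 534 and 713. C1QC had a log2 fold change of 0.21 ± 0.64 (SE). The 12 dendritic cell markers found summed to between 1394 and 1870 over the 5 libraries, and CD207 among them was listed at 0. Most of that sum was SIRPA, with 986 to 1093 normalized reads. FLT3, named after its values were seen, ran from 4.69 to 49.4. SIRPA, FSCN1 and ZBTB46 were the most abundant, with log2 fold changes of -0.02, 0.17 and -0.18. The 10 B cell and plasma cell markers summed to 4247 and 3800.1 in LF/LCL cows and 3843, 1453 and 6813 in SF/SCL cows, most of it IGJ, the joining chain of secreted antibody (log2 fold change 0.27 ± 0.64, SE). MZB1 had from 106 to 186 normalized reads, and PAX5, which defines B cells, was listed at 0. Of the leukocyte lists, that of T and NK cells had the highest median log2 fold change (0.71) and the most entries without overlap, with sums of 2083 and 2793 in LF/LCL cows and 1126, 1378 and 1318 in SF/SCL cows. Of these 17 tested entries 10 (58.8%) were without overlap, all higher in LF/LCL, beside 30.1% of all genes tested. With limma 6 (35.3%) had an unadjusted p under 0.05, beside 11.5% of all genes tested, and 0 had an adjusted p under 0.05. CD247, LCK and CD3E had log2 fold changes of 1.64 ± 0.32, 0.57 ± 0.22 and 0.85 ± 0.23 (SE). The pan-leukocyte and T cell sums did not overlap between groups, while the macrophage, dendritic and B cell sums overlapped. The dendritic and B cell sums mostly follow SIRPA and IGJ, and say little about the other markers of those lists. The part of leukocyte numbers in the levels of the 10 antigen presentation genes was not tested.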

How the data were processed

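RNA from whole ampulla was sequenced as polyA-selected read pairs. The authors filtered reads with seqyClean, aligned them with TopHat2 2.0.8 and Bowtie2 2.1.0 against UMD 3.1 (cattle, repeats masked), and then counted uniquely mapped reads per Ensembl gene with HTSeq 0.5.4p2. Whether counting used strand is not given in the sources used here. The deposited values are a normalized signal: the authors divided read counts by the size factors of DESeq 1.12.1. Whole reads could be recovered from them, with 100% of values above 0 within 0.05 of a whole number of reads.

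The main test was limma 3.58.1 (lmFit and eBayes, trend and robust on) on log2(value + 1), for genes with a mean value over 5, with Benjamini-Hochberg adjustment over all genes tested, no covariates and a two-sided threshold of 0.05. A fold change on this scale understates that of low genes. Alternatives on the recovered reads used edgeR 4.0.16 and DESeq2 1.42.0. Libraries were grouped by their titles, and replicates were numbered in accession order. Each is a different cow, and no batch was given. The script was tested on simulated data.

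The genes and lists were chosen with earlier results of these data known. Named are all members, listed class I, class II and inhibitor genes with an unadjusted p under 0.05, the 6 regulators with the smallest p, up to 3 of the most abundant markers of each cell type, and the 5 nearest profiles of CTSS and CD74. Some genes that this rule names are not reported here. Other names are said to be chosen after their values were seen. BOLA-NC, BOLA-DNA and BOLA-DIB joined the lists after the symbols of the table were seen. Markers of endothelial, stromal and secretory cells were also read.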

Additional observations from a re-analysis of the deposited data

How the results depend on the processing

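CTSS kept its direction and its unadjusted p under 0.05 in all 17 alternatives, and its adjusted p was under 0.05 in DESeq2 only. No paired analysis was possible because each library is a different cow and the labels give the groups no shared replicate numbers. DESeq2 called 457 genes, of which 1 was a member (CTSS), and the edgeR exact test called 336 genes, where limma called 0. Listed pathway genes with an unadjusted p under 0.05 numbered 2 with limma, 4 with library size scaling, 4 without trend and robust estimation, 4 with the exact test, 6 with DESeq2, and from 4 to 7 with one replicate left out. With one SF/SCL replicate left out, 1 member had that p, beside 9.45% to 10.5% of all genes. The members without overlap then numbered from 1 to 4, beside 41.1% to 43.0% of all genes. Without LF/LCL replicate 1 the members without overlap numbered 7, beside 56.9% of all genes. With one replicate of either group left out, signs changed for NLRC5 (from -0.353 to 0.235), TAP1 (-0.156 to 0.328) and PSMB9 (-0.018 to 0.508). They also changed for BOLA-DRA (-0.464 to 0.493), B2M (-0.003 to 0.644) and CD74 (-0.374 to 0.563). BOLA-DRA was also -0.022 with library size scaling, where the median of all genes was -0.03. The causes were not tested. With 2 against 3 cows, class II differences of about 2-fold lie within the intervals.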

Other observations

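The genes with profiles closest to that of CTSS, by root mean square difference of centred log2(value + 1) over the 5 libraries, were CYTH4 (0.07), SMARCD2 (0.07), PSD4 (0.07), ZHX3 (0.08) and TSPAN17 (0.08). CYTH4 encodes a cytohesin of blood cells, and it had 315 and 388 normalized reads in LF/LCL cows and 287, 193 and 229 in SF/SCL cows. Of the 10 antigen presentation genes, PSMB9 came nearest to CTSS, at rank 377 of 11951, and B2M at rank 411.

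The secretory cell markers summed to 189973 and 161642 in LF/LCL cows and 157508, 187062 and 175050 in SF/SCL cows, mostly OVGP1, with overlap. The genes behind that sum differed in both directions. Of the 10 tested, 6 (60%) were without overlap, 5 with the higher and 1 with the lower values in LF/LCL. The share over all genes tested was 30.1%. With limma 5 (50%) had an unadjusted p under 0.05, 4 higher and 1 lower, beside 11.5% of all genes tested. None had an adjusted p under 0.05. EPCAM and KRT8, which with OVGP1 were the most abundant of the list, had log2 fold changes of 0.40 ± 0.16 and 0.23 ± 0.13 (SE). WFDC2 (1.74 ± 0.31), PAX8 (0.62 ± 0.15) and KRT19 (-0.81 ± 0.15), named after their values were seen, had the smallest p of the list. The sums of the 10 endothelial and 10 stromal fibroblast markers also overlapped, from 5335 to 9424 and from 22168 to 84919 over the 5 libraries. The stromal sum was highest in LF/LCL replicate 1, where CD74 and BOLA-DRA were low. It was lowest in SF/SCL replicate 2, where both genes were at their lowest. In SF/SCL replicate 3, where both were at their highest, the sum was 49742.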
